A study of Mus musculus with 16 samples.

Results

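The loss of vanin-1 in fed liver was examined by setting the 4 arrays of fed vanin-1 knockout livers against the 4 arrays of fed wild type livers, 8 of the 16 arrays in the study. The members are arrays, taken by their titles, and all 18820 genes measured were described on them. All animals were male mice, labelled with the C57Bl/6J strain background, aged 14 to 16 weeks, housed singly and given laboratory chow. The fed groups were sampled after 24 h of normal feeding, per their titles and characteristics, and the other 2 groups of the study, used here to help estimate the spread, after 24 h without food. The treatment text deposited with the fed samples speaks of fasting and goes against those labels, which were followed here. The knockout is a null allele carried by the whole animal, so every cell type of the liver lacks the enzyme. The labels do not give the construct, the number of backcrosses or whether the wild type mice were littermates. Liver RNA was hybridised to whole-transcript arrays, and all values are deposited RMA values on the log2 scale, where 1 unit is a doubling of signal.

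Vnn1 encodes vanin-1, a pantetheinase anchored to the outer face of the cell membrane. It splits pantetheine, a breakdown product of coenzyme A, into pantothenate, which cells can use again to make coenzyme A, and the small aminothiol cysteamine. In liver the gene is made by hepatocytes and is a target of PPARα, the nuclear receptor that drives fat oxidation. Mammals hold further enzymes of the same family, of which mouse Vnn3 and the biotin-recycling enzyme biotinidase (Btd) were measured here.

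The arrays matched their tissue label. Of the hepatocyte markers, 11 were measured, and their mean lay between 12.63 and 12.72 on the 8 fed arrays, among them albumin (Alb) at 13.56 to 13.67. Markers of pancreas, fat and muscle, and bile duct had list means between 3.75 and 5.03 on every fed array. Across genes, fed arrays of 1 group correlated at 0.992 to 0.996 and arrays of different fed groups at 0.990 to 0.996. Fed knockout replicate 4 and fed wild type replicate 4 stood apart. Counting genes more than 1 log2 unit away from the mean of the other 3 arrays of the group, there were 131 on knockout replicate 4 and 146 on wild type replicate 4, against 35 to 80 on the other 6. Knockout replicate 4 carried high acute phase transcripts, described below. The main counts, the leading genes and several of the lists it moved are also given without it.

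Vnn1, the targeted gene, checks the genotype labels. On the wild type arrays it read 10.34, 8.74, 9.85 and 6.71, and on the knockout arrays 3.85, 3.84, 3.80 and 4.06. Every knockout array lay below every wild type array, and close to the lower quartile of all probe sets on an array (3.72 to 3.79), where arrays give little signal over background. The wild type arrays themselves spanned more than 3 log2 units, with replicate 4 the lowest. Vnn1 fell in the knockout by 5.02 on the log2 scale (SE 0.54, 95% interval -6.16 to -3.88, limma adjusted p = 9.61e-04), from 8.91 ± 1.61 to 3.89 ± 0.12 (SD, n = 4 each), at least 32.5-fold with the knockout level taken as a floor. An exact two-sided permutation test over the 8 arrays gave p = 0.0286, the smallest that 4 against 4 arrays allow. Without knockout replicate 4 the difference was -5.08 (limma adjusted p = 0.00624). The call was lost when the fit used the fed arrays alone (limma adjusted p = 0.163). It was also lost without the 3 arrays of the study whose file names end in 2 (limma adjusted p = 0.0759). Among the fed arrays these were knockout replicate 4 and wild type replicate 2, and the meaning of that ending was not stated.

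**Figure D1:**
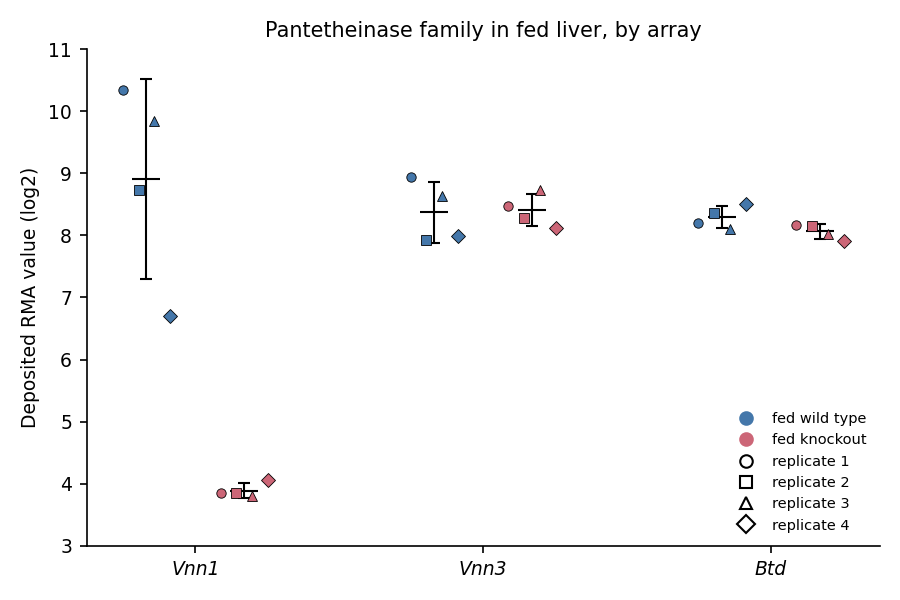
Deposited RMA values (log2, vertical axis) of the pantetheinase family genes Vnn1, Vnn3 and Btd on each fed array, with group means and SD (n = 4). The 4 knockout arrays lie between 3.80 and 4.06 for Vnn1, below all wild type arrays, whereas the groups overlap for Vnn3 and Btd.

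The 2 other family members measured did not pass the test. Vnn3, the neighbouring vanin gene, read 8.94, 7.93, 8.63 and 7.99 on the wild type arrays and 8.47, 8.29, 8.73 and 8.12 on the knockout arrays. The groups overlapped, and the difference of 0.03 had a 95% interval from -0.37 to 0.43. Btd, which frees biotin from its protein-bound form, read 8.20, 8.36, 8.10 and 8.51 in wild type and 8.17, 8.15, 8.02 and 7.92 in knockout liver, a difference of -0.23 (interval -0.49 to 0.04, limma adjusted p = 0.861).

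Across all genes, Vnn1 was the 1 gene of 18820 that passed the limma test at an adjusted p under 0.05 (0.00531%), and without knockout replicate 4 it was again the 1 gene (0.00531%). With an unadjusted p under 0.05, the knockout mean was higher in 453 genes (2.41%) and lower in 631 (3.35%). Together these are 1084 genes (5.76%), where chance alone would give 941. Without knockout replicate 4 the counts were 459 (2.44%) and 547 (2.91%), and 647 genes were in both sets with the same sign. When each array was centred on its median, the split turned to 536 higher and 470 lower, so the excess of lower genes depended on this scaling. The groups did not overlap in 241 genes with the knockout above (1.28%) and in 346 with it below (1.84%); with the 3 remaining knockout arrays, for which chance separates more genes, these were 551 (2.93%) and 627 (3.33%).

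Most of these differences were small. Of all genes, 18709 (99.4%) differed by less than 1.5-fold, and 23 by more than 2-fold, 15 upward and 8 downward. The median SE of a difference was 0.10 log2 units, and the 95% interval lay within 1 log2 unit on either side of 0 in 18569 genes. For those genes the data bound the mean difference in signal to less than 2-fold, one gene at a time. Of them, 9224 lay above the median level of all genes. Genes near background have compressed differences, so for these the RNA difference is less well bounded. The number of arrays limits this precision.

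**Figure D2:**
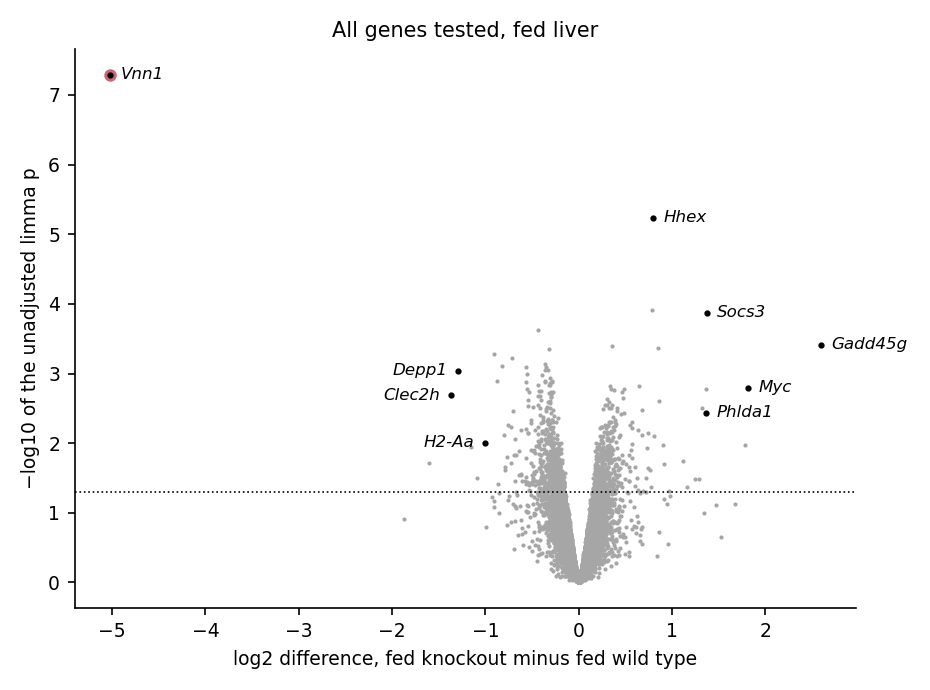
The log2 difference between fed knockout and fed wild type (horizontal axis) against −log10 of the unadjusted limma p (vertical axis) for 18820 genes, with a dotted line at the unadjusted threshold. Vnn1, the red point, lies apart from all other genes, and Hhex is next by p.

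Vanin-1 supplies pantothenate, so the genes of coenzyme A metabolism were read next. Of 22 genes listed for coenzyme A synthesis and breakdown, 20 were measured. None reached an unadjusted p under 0.05, where 2.41% of all genes were higher and 3.35% lower. In none were the groups apart, where 1.28% of all genes were apart upward and 1.84% downward. In a list of 20 genes, none is close to those shares. Their median difference was 0.02, against -0.01 over all genes. Pank1, the main hepatic pantothenate kinase gene and the controlled step of the pathway, read 11.97, 11.80, 11.87 and 11.57 in wild type and 11.79, 11.96, 11.79 and 11.94 in knockout liver (difference 0.07, interval -0.17 to 0.30). Averaged over all its probe sets the difference was -0.31 (limma adjusted p = 0.849), so its probe sets disagreed. The differences of Pank2, Pank3 and Pank4, its sister kinases, were -0.02, 0.16 and -0.14. Further down the pathway, Ppcs, Ppcdc and Coasy, which turn phosphopantothenate into coenzyme A, differed by 0.19, 0.20 and 0.00. The mitochondrial carriers Slc25a42 and Slc25a16 differed by 0.13 and 0.03, and Slc5a6, the vitamin transporter that takes up pantothenate and biotin, by -0.29. Among the hydrolases that break coenzyme A down, Nudt7, Nudt8 and Nudt19 differed by 0.19, 0.01 and -0.10.

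The 95% interval stayed within 1 log2 unit of 0 for 17 of these 20 genes. The exceptions were the acyl-CoA thioesterases Acot1, Acot2 and Acot3, which release free coenzyme A and follow PPARα activity. Acot1, for example, ran from 5.51 to 7.26 in wild type and from 5.17 to 7.31 in knockout liver, with replicate 4 the lowest in both groups. For these 3 genes a 2-fold difference lay within the interval. Without knockout replicate 4 the list's median was 0.11, and 1 gene, Slc5a6, had an unadjusted p under 0.05 (difference -0.36, limma adjusted p = 0.916). In that fit 2.91% of all genes were lower at that level.

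The second product of the enzyme, cysteamine, feeds into hypotaurine and taurine, and 21 genes of cysteine, taurine and methionine metabolism were measured. None had an unadjusted p under 0.05, where 2.41% of all genes were higher and 3.35% lower, shares close to none in 21 genes. All 21 intervals lay within 1 log2 unit of 0, and the median difference was 0.02. Ado, the dioxygenase that oxidises cysteamine, read 7.12, 7.01, 6.92 and 6.88 in wild type and 7.16, 7.19, 6.99 and 7.25 in knockout liver, an overlap with a difference of 0.16. Cdo1, which oxidises cysteine in the other route to hypotaurine, differed by 0.16 and Csad, the decarboxylase after it, by 0.08 (interval -0.49 to 0.64). Csad was low on 1 array of each group, at 9.71 on wild type replicate 3 and at 9.71 on knockout replicate 4. The taurine transporter gene Slc6a6 differed by -0.34, Cth, which makes cysteine from cystathionine, by 0.11, and Baat, which joins taurine to bile acids, by 0.08.

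Cysteamine also bears on thiol balance. Of 27 genes for glutathione and antioxidant defence 1 was higher and 1 lower at an unadjusted p under 0.05, and none passed adjustment. Of all genes, 2.41% were higher and 3.35% lower at that level. Txnrd1, cytosolic thioredoxin reductase, read 9.05, 8.73, 8.98 and 8.96 in wild type and 9.09, 9.06, 9.30 and 9.46 in knockout liver. All knockout arrays lay above all wild type arrays, by 0.30 on average (limma adjusted p = 0.855). Hmox1, haem oxygenase 1, read 8.13, 8.68, 7.79 and 8.88 against 7.43, 7.70, 7.65 and 7.95. Its groups overlapped on knockout replicate 4, and the difference was -0.69, or -0.78 without that array.

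The gene nearest to the threshold was Hhex, a homeobox transcription factor of liver and bile duct development. It read 8.87, 9.10, 8.86 and 9.29 on the wild type arrays and 9.63, 10.02, 9.91 and 9.76 on the knockout arrays. Each knockout array exceeded each wild type array, and the spread within a group was small beside the gap. The difference was 0.80 (SE 0.12, interval 0.54 to 1.06), or 1.74-fold, with a limma adjusted p of 0.0549. Without knockout replicate 4 it was 0.82, with an adjusted p of 0.171. The adjusted p was below 0.05 in 7 of the 23 other settings tried, for example 0.0202 after centring each array on its median, and ranged from 0.0202 to 0.517. In fasted liver the same contrast was 0.06, from 9.32 in wild type to 9.38 in knockout.

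Among genes with a higher mean in the knockout, an unadjusted p under 0.05, no overlap and a level above the median gene, predicted genes and olfactory receptors left out, the largest difference was that of Gadd45g, a growth-arrest and stress gene. Gadd45g read 7.07, 7.82, 5.29 and 5.75 in wild type and 8.17, 9.82, 8.97 and 9.33 in knockout liver. Both groups scattered widely, and the difference of 2.59 (6.03-fold, interval 1.35 to 3.83) had a limma adjusted p of 0.776, and it was 2.51 without knockout replicate 4. Myc, the growth-promoting transcription factor, read 6.41, 6.21, 5.61 and 5.77 in wild type liver, and 6.80, 9.03, 8.97 and 6.45 in the knockout. Knockout replicates 2 and 3 were high, whereas replicates 1 and 4 lay just above the wild type range. Its difference was 1.82, and 2.27 without knockout replicate 4 (limma adjusted p = 0.776 and 0.572).

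In 3 further genes the arrays of the knockout group were uneven. Socs3, the feedback inhibitor of cytokine and leptin receptors, read 6.05, 6.67, 5.60 and 5.85 in wild type and 6.51, 7.83, 7.63 and 7.67 in knockout liver. Knockout replicate 1 lay inside the wild type range, and the difference was 1.37 (interval 0.78 to 1.96, limma adjusted p = 0.627). Without that array it was 1.67 with an adjusted p of 0.0277. Phlda1, an early response gene, read 8.73, 7.83, 8.05 and 7.82 against 9.57, 10.05, 10.07 and 8.21. Foxq1, a forkhead transcription factor, read 8.48, 8.38, 7.20 and 8.12 against 9.28, 9.95, 9.48 and 7.96. In both, knockout replicate 4 was the lowest of its group and overlapped the wild type. Their differences were 1.37 and 1.12, or 1.79 and 1.52 without it, and none passed adjustment.

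The rest of this group had smaller differences than Myc. Acnat2, an acyl-CoA:amino acid N-acyltransferase gene of peroxisomes, was 1.37 higher, Capn8, a calpain, 1.32, Gna14, a G protein subunit, 0.85, and Extl1, a heparan sulphate glycosyltransferase, 0.81. Slc22a7, the organic anion transporter OAT2 of hepatocytes, was 0.96 higher, or 0.48 without wild type replicate 4, which read 6.59 against 8.45 to 8.67 on the other wild type arrays and 8.88 to 9.13 on the knockout arrays. For Acnat2, Capn8, Gna14 and Extl1 too, wild type replicate 4 was the lowest array. No limma adjusted p in this group was below 0.776.

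**Figure D3:**
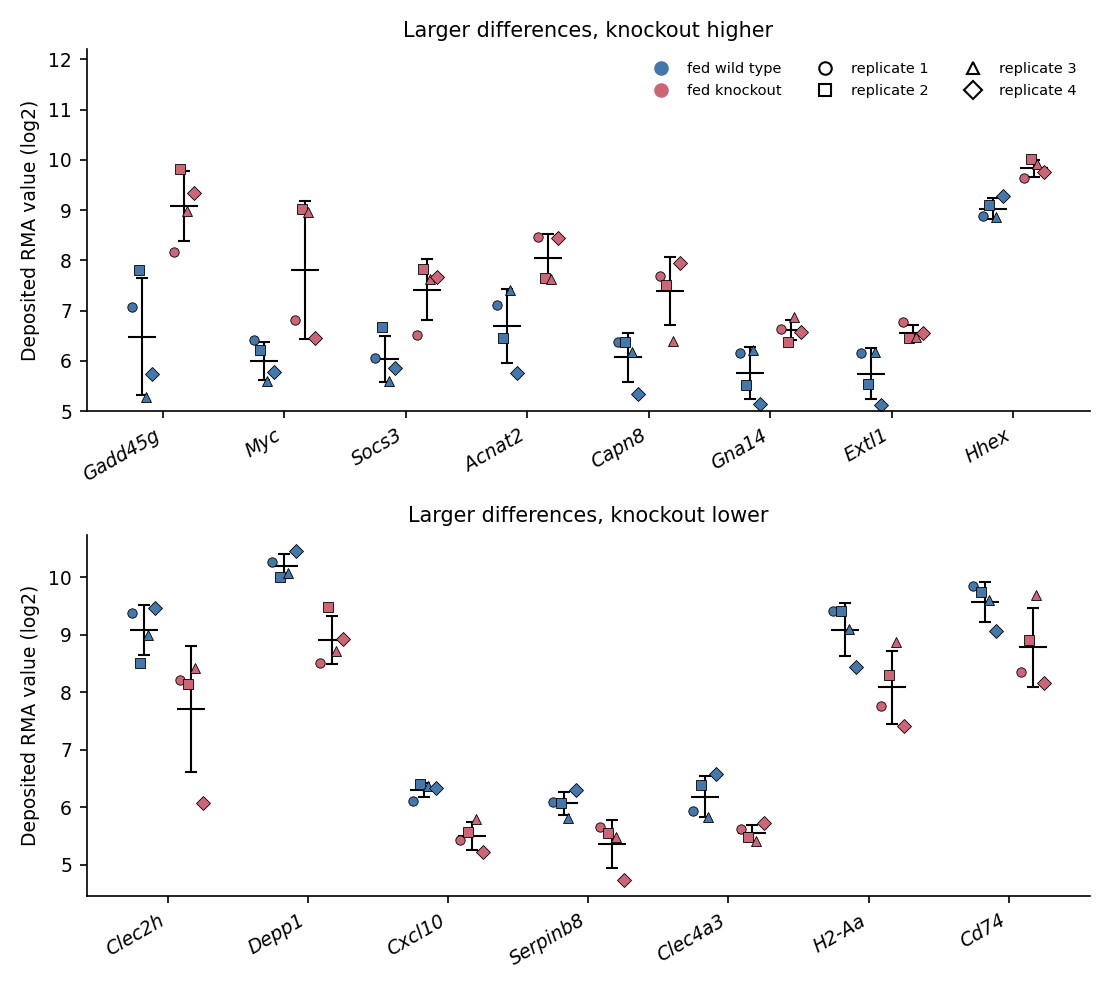
Deposited RMA values (log2, vertical axis) of 15 genes with large differences on each fed array, with group means and SD (n = 4), those higher in the knockout in the upper panel and those lower in the lower panel. Most separate by genotype, but the arrays of a group scatter by up to more than 2 log2 units, as for Gadd45g and Myc.

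Among genes with a lower mean in the knockout, chosen by the same limits, Clec2h, a C-type lectin-like gene, had the largest difference after Vnn1. It read 9.37, 8.51, 9.00 and 9.46 in wild type and 8.21, 8.15, 8.42 and 6.07 in knockout liver. The groups did not overlap, but knockout replicate 4 lay more than 2 log2 units below the others, and the difference of -1.37 came to -0.83 without it. Depp1, a FOXO-induced gene of autophagy and peroxisomes, read 10.27, 9.997, 10.07 and 10.46 against 8.50, 9.48, 8.71 and 8.93. All knockout arrays were lower, by 1.29 on average (log2 difference -1.29, interval -1.97 to -0.61, limma adjusted p = 0.776), and the value hardly moved without replicate 4 (-1.30). In fasted liver the contrast was 0.01.

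The others were smaller. Arhgap6 differed by -0.88, or -0.68 without knockout replicate 4, and its groups did not overlap. The chemokine gene Cxcl10 differed by -0.80 and the intracellular protease inhibitor gene Serpinb8 by -0.72. The myeloid lectin gene Clec4a3 differed by -0.62 and the arrestin-domain gene Arrdc3 by -0.61. Cxcl10, an interferon-induced chemokine, read 6.11, 6.40, 6.36 and 6.33 in wild type and 5.42, 5.58, 5.80 and 5.22 in knockout liver, so each group was tight and the groups were apart. No limma adjusted p among these genes was below 0.776.

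Vnn1 is itself a PPARα target, and 43 such genes were measured. Apart from Vnn1, 1 reached an unadjusted p under 0.05, where 5.76% of all genes did, and the median of the list was 0.02. That gene was Fgf21, the fasting hormone of liver, which read 5.39, 5.31, 5.23 and 5.51 in wild type and 4.67, 4.90, 4.93 and 4.69 in knockout liver. The groups did not overlap (difference -0.56, interval -0.87 to -0.25, limma adjusted p = 0.776). The list mean varied most within wild type, at 9.87, 9.25, 9.58 and 8.72, and lay at 9.21, 9.47, 9.30 and 8.93 in the knockout. Both replicates numbered 4 were the lowest of their group. Vnn1 is 1 of the 43 genes in these means.

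Genes of fat burning and storage gave medians near 0. At an unadjusted p under 0.05, 2.41% of all genes were higher and 3.35% lower, beside the counts that follow. Of 17 genes of mitochondrial beta oxidation none had an unadjusted p under 0.05, with a median of 0.02 and all intervals within 1 log2 unit of 0. Of 5 ketone body genes 1 was higher (Slc16a6, a ketone body exporter, 0.54) and 1 lower (Bdh2, -0.37), which came to 0.35 and -0.24 without knockout replicate 4. Of 23 fatty acid synthesis genes 1 was lower (Scd2, a stearoyl-CoA desaturase, -0.67, but -0.35 without wild type replicate 4 and -1.01 without wild type replicate 3). Thrsp, a lipogenic regulator, ran from 8.51 to 11.97 within the knockout group, with replicate 3 the highest. Of 19 cholesterol synthesis genes 1 was higher (Mvk, mevalonate kinase, 0.40) and 1 lower (Tm7sf2, a sterol reductase, -0.26, or -0.17 without knockout replicate 4). The list's median was 0.13, and it lay between 0.05 and 0.25 with 1 fed array left out, lowest without knockout replicate 3 and highest without knockout replicate 2. Of 40 genes for triglyceride storage and lipoproteins 1 was lower, Apoc2, the cofactor of lipoprotein lipase. It read 10.87, 11.47, 11.17 and 11.23 in wild type and 10.86, 10.89, 10.63 and 10.78 in knockout liver (difference -0.40), with 1 wild type array inside the knockout range. None of these genes passed adjustment.

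Genes of glucose and bile acid metabolism followed, beside 2.41% of all genes higher and 3.35% lower at an unadjusted p under 0.05. Of 18 glycolysis genes 1 was higher at an unadjusted p under 0.05, Pfkfb3, which makes the glycolytic activator fructose-2,6-bisphosphate (0.75). Of 22 genes for gluconeogenesis and amino acid breakdown 1 was higher, Prodh, proline dehydrogenase (0.44). Without knockout replicate 4, 3 glycolysis genes were higher at that level, and of the second list 2 were higher and 2 lower. Of all genes, 2.44% were then higher and 2.91% lower. Igfbp1, an insulin-suppressed binding protein of insulin-like growth factors, read 8.79, 10.24, 9.07 and 10.50 in wild type and 8.18, 9.03, 7.57 and 10.10 in knockout liver. The arrays overlapped, and the difference moved from -0.93 to -1.39 when knockout replicate 4 was left out, with no call in either fit (limma adjusted p = 0.859 and 0.916). Of 21 bile acid genes 1 was lower, the sterol exporter gene Abcg8 (-0.46, but -0.26 without knockout replicate 4 and -0.28 without wild type replicate 4). Cyp7a1, the rate-limiting enzyme of bile acid synthesis, differed by 0.32, and by 0.00 without knockout replicate 4.

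Among lists with 15 or more genes measured, the median lay farthest from 0 in that of Kupffer cells and macrophages, the resident phagocytes of liver. Of 24 markers measured, 21 had a lower mean in the knockout, and the median difference was -0.20, or -0.24 without knockout replicate 4, against -0.01 over all genes. At an unadjusted p under 0.05, 4 of the 24 were lower and 1 higher, where 3.35% and 2.41% of all genes were. None of the 24 passed adjustment. Adgre1, which encodes the F4/80 antigen, read 8.50, 8.42, 8.07 and 9.32 in wild type and 8.04, 7.84, 8.18 and 8.11 in knockout liver. Tyrobp, an adaptor of myeloid receptors, read 8.43, 8.48, 8.13 and 8.82 against 8.18, 7.85, 8.08 and 8.08. In both the groups overlapped and wild type replicate 4 was the highest array. C1qa and C1qc, subunits of complement C1q, differed by -0.31 and -0.28. Without wild type replicate 4, Adgre1 differed by -0.29 and C1qc by -0.16.

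The list mean was 8.24, 8.22, 8.01 and 8.51 on the wild type arrays and 8.07, 7.91, 8.09 and 8.19 on the knockout arrays, so wild type replicate 3 lay inside the knockout range. Without wild type replicate 4 the list's median was -0.11, and without both replicates numbered 4 it was -0.17. Cd163, the haemoglobin scavenger receptor of macrophages, ran the other way, at 7.29, 6.49, 7.35 and 6.61 in wild type and 7.53, 7.46, 7.54 and 8.19 in knockout liver (difference 0.74, groups apart). Clec4f, the marker most particular to Kupffer cells, differed by 0.03. In bulk liver, fewer cells of a type and less RNA per cell cannot be told apart.

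Of 34 genes for interferon response and antigen presentation, 22 had a lower mean in the knockout, where 9796 of all 18820 genes did, and the median was -0.07. At an unadjusted p under 0.05, 5 were lower and 1 higher (3.35% and 2.41% of all genes), and without knockout replicate 4 it was 2 and 1 (2.91% and 2.44%). H2-Aa, a chain of MHC class II, read 9.41, 9.41, 9.11 and 8.44 in wild type and 7.76, 8.29, 8.88 and 7.42 in knockout liver. Its partner chain H2-Ab1 read 9.98, 9.39, 9.53 and 8.78 against 7.99, 8.73, 9.73 and 7.76, and the invariant chain Cd74 read 9.85, 9.74, 9.61 and 9.07 against 8.35, 8.91, 9.70 and 8.16. In all 3 genes knockout replicate 3 lay inside the wild type range, while knockout replicates 1, 2 and 4 were below it. The differences were -1.003, -0.87 and -0.79, and -0.78, -0.60 and -0.58 without replicate 4 (limma adjusted p at least 0.855 in each). Irf8, a transcription factor of myeloid cells, differed by -0.31 with the groups apart, and Gbp2, an interferon-induced GTPase, by -0.53. The 1 higher gene at that level was Tap2, a peptide transporter for MHC class I, at 0.26, or 0.15 without knockout replicate 3. Of the neutrophil and lymphocyte markers, Nkg7, a gene of cytotoxic lymphocytes, was lower with the groups apart (-0.70). Against 9796 of all 18820 genes, 12 of 16 of these markers and 14 of 15 endothelial markers had a lower mean. No endothelial marker had an unadjusted p under 0.05, and without knockout replicate 4 the means of 9 of the 15 were lower.

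Acute phase genes varied widely between arrays of 1 genotype. These genes encode plasma proteins and regulators that hepatocytes make in response to interleukin-6 and related cytokines. Of 48 measured, knockout replicate 4 was the highest of the 8 fed arrays in 32 (66.7%), against 3038 of all 18820 genes (16.1%). This array was set apart beforehand because it carries acute phase transcripts, so the share describes that choice and tests nothing. Saa2, serum amyloid A, read 7.66, 10.94, 8.44 and 7.63 in wild type and 12.06, 7.50, 7.87 and 13.34 in knockout liver. Lcn2, the iron-binding lipocalin, read 6.23, 9.47, 7.33 and 6.51 against 7.97, 6.04, 6.59 and 12.30, and Orm2, an orosomucoid, 8.32, 9.44, 8.52 and 8.29 against 11.35, 7.99, 8.09 and 12.52. Knockout replicate 4 was highest throughout, knockout replicate 1 was next for Saa2 and Orm2, and wild type replicate 2 was the highest wild type array in each. The other 2 knockout arrays lay near or below the bottom of the wild type range. The file names of knockout replicate 4 and wild type replicate 2 both end in 2. What that ending means was not stated, and its part in these values was not tested.

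**Figure D4:**
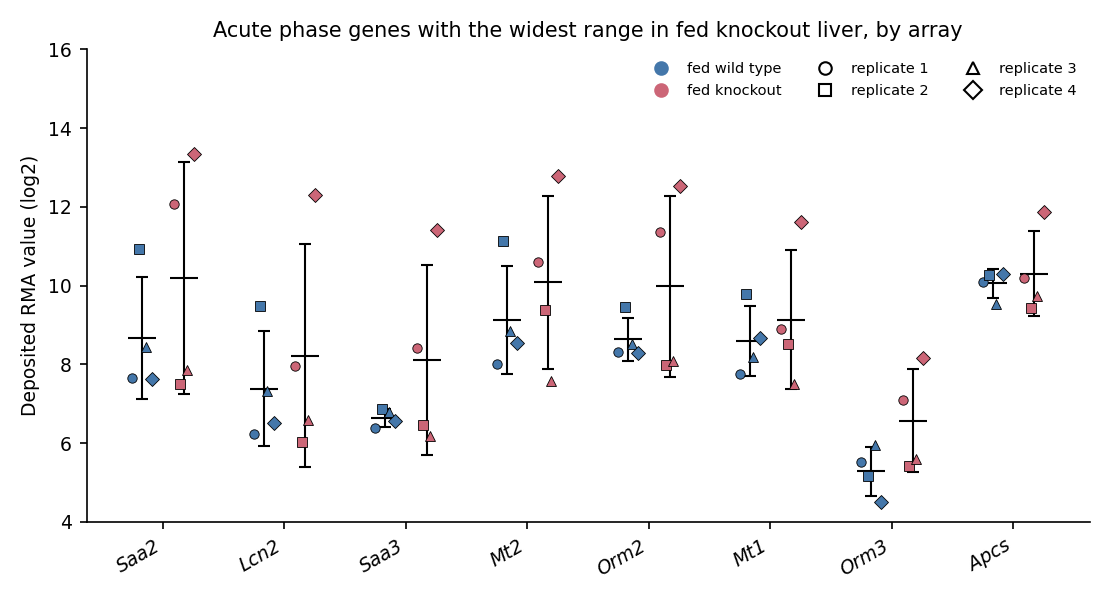
Deposited RMA values (log2, vertical axis) of the 8 acute phase genes with the widest range over the fed knockout arrays, shown for each fed array with group means and SD (n = 4). Knockout replicate 4, the red diamond, is the highest point for every gene, at 12.30 for Lcn2 and 13.34 for Saa2. The choice of genes by their range favours such an array.

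This array set the level of the whole list. The median difference of the 48 genes was 0.11 with it and -0.04 without it, and 36 of 48 had a higher mean with it and 18 without it. Saa2 went from 1.52 to 0.47, Saa3 from 1.47 to 0.37, Orm2 from 1.35 to 0.50 and Lcn2 from 0.84 to -0.52. The metallothionein genes Mt1 and Mt2, which bind zinc, read 11.62 and 12.79 on knockout replicate 4, against 7.51 to 8.90 and 7.57 to 10.60 on the other knockout arrays. None of the 48 genes passed adjustment in either fit. At an unadjusted p under 0.05, 3 were higher (Socs3, Orm3 and Cebpb) and 2 lower (Hamp2 and Cxcl10), against 2.41% and 3.35% of all genes. Without knockout replicate 4 it was 1 higher and 4 lower, against 2.44% and 2.91% of all genes. Orm3 went from 1.29 to 0.76 and Cebpb from 0.57 to 0.35 without knockout replicate 4. The intervals were wide, from -1.02 to 4.06 for Saa2, and lay within 1 log2 unit of 0 in 34 of the 48.

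The start regions of 4 of these genes are shown because they share letters of the kind bound by C/EBP factors, which drive acute phase genes. They are the 250 bases before the transcription start, 5′ to 3′ on the gene's strand, from RefSeq on build GRCm38.p6, with the match in capitals.
Saa2 (chr7:46751583-46751832, plus strand): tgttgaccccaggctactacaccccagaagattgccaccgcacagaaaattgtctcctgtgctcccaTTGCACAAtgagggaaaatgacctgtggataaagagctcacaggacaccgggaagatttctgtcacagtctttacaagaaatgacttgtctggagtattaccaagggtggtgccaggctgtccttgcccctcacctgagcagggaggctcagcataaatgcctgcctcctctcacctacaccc
Orm2 (chr4:63362199-63362448, plus strand): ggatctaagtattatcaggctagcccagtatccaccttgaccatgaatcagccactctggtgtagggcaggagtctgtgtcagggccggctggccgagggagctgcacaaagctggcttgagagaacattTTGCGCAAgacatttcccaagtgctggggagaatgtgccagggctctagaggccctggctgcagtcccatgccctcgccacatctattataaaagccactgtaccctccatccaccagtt
Orm3 (chr4:63355908-63356157, plus strand): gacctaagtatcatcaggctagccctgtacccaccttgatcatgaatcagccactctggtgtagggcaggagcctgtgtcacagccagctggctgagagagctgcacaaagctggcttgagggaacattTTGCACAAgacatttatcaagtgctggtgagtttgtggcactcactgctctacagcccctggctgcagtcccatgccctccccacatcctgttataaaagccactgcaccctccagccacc
Lcn2 (chr2:32387740-32387989, minus strand): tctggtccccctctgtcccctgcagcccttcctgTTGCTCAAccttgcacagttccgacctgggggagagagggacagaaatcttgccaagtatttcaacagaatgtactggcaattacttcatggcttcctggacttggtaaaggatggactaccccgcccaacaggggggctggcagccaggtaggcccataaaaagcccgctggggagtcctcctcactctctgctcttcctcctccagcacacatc

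The search was for TTGCNCAA on both strands, and for TTCNNNGAA, the form bound by STAT factors, which reads the same on both strands. The first was found in 7 of the 37 acute phase genes with a window (18.9%) and in 2.61% of 32851 windows of that length. The second was found in 10 of the 37 (27.0%) and in 7.02% of all windows, Socs3 among them. The windows of Saa3 and Mt2 held neither form. High shares were not confined to acute phase genes, although most of the other lists had lower ones. The STAT form was found in 4 of 15 bile acid genes with a window (26.7%) and in 24.0% of the interferon list. The C/EBP form was found in 2 of 7 pancreas markers (28.6%). A match describes these letters and is not a bound site, and the 4 genes shown were chosen after their values and matches were seen.

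Knockout replicate 4 differed in other genes too, named here after their values were seen. Tlr2, the receptor for bacterial lipoproteins, read 8.38 on it against a mean of 5.88 on the other knockout arrays, Tifa, an adaptor of NF-κB signalling, 9.77 against 7.54, and Steap4, a metalloreductase, 12.35 against 10.18. At the low end, Cyp4a14, a fatty acid hydroxylase induced by PPARα, read 7.53 against 10.54, and Cish, a feedback gene of growth hormone signalling, 5.05 against 7.85. It was the lowest fed array in 17 of 28 respiratory chain genes (17.7% of all genes), whose mean was 10.30 on it and 10.41 to 10.56 on the other 7, and the highest in 13 of 23 cell cycle genes (16.1% of all genes). S100a8, a neutrophil gene, read 5.27 on it against 3.72 to 3.98 on the other fed arrays. The part of these genes in the acute phase values was not tested.

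The remaining lists held few genes past an unadjusted p of 0.05, where 2.41% of all genes were higher and 3.35% lower. Of 20 male-biased genes 2 were higher, Serpina12 (1.25), which encodes the adipokine vaspin, and Susd4 (0.60), a complement regulator. Serpina12 read 6.83, 6.22, 7.16 and 4.39 in wild type and 6.95, 7.59, 7.71 and 7.33 in knockout liver, with wild type replicate 4 far below the rest, and the difference was 0.66 without that array. Of 16 female-biased genes 1 was lower, Abcd2, a peroxisomal fatty acid transporter (-1.16, and -0.78 without knockout replicate 4). Of 15 genes of iron handling 2 were lower, Id1, a target of bone morphogenetic protein signalling (-0.77, or -0.45 without wild type replicate 4), and the hepcidin gene Hamp2 (-0.41). Of 23 cell cycle genes 1 was lower (Ccne1, cyclin E1, -0.40), and of 23 genes of xenobiotic metabolism 1 was higher (Ahr, the dioxin receptor, 0.47). No gene of the lists for endoplasmic reticulum stress, the circadian clock, the respiratory chain or stellate cells reached that level.

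**Figure D5:**
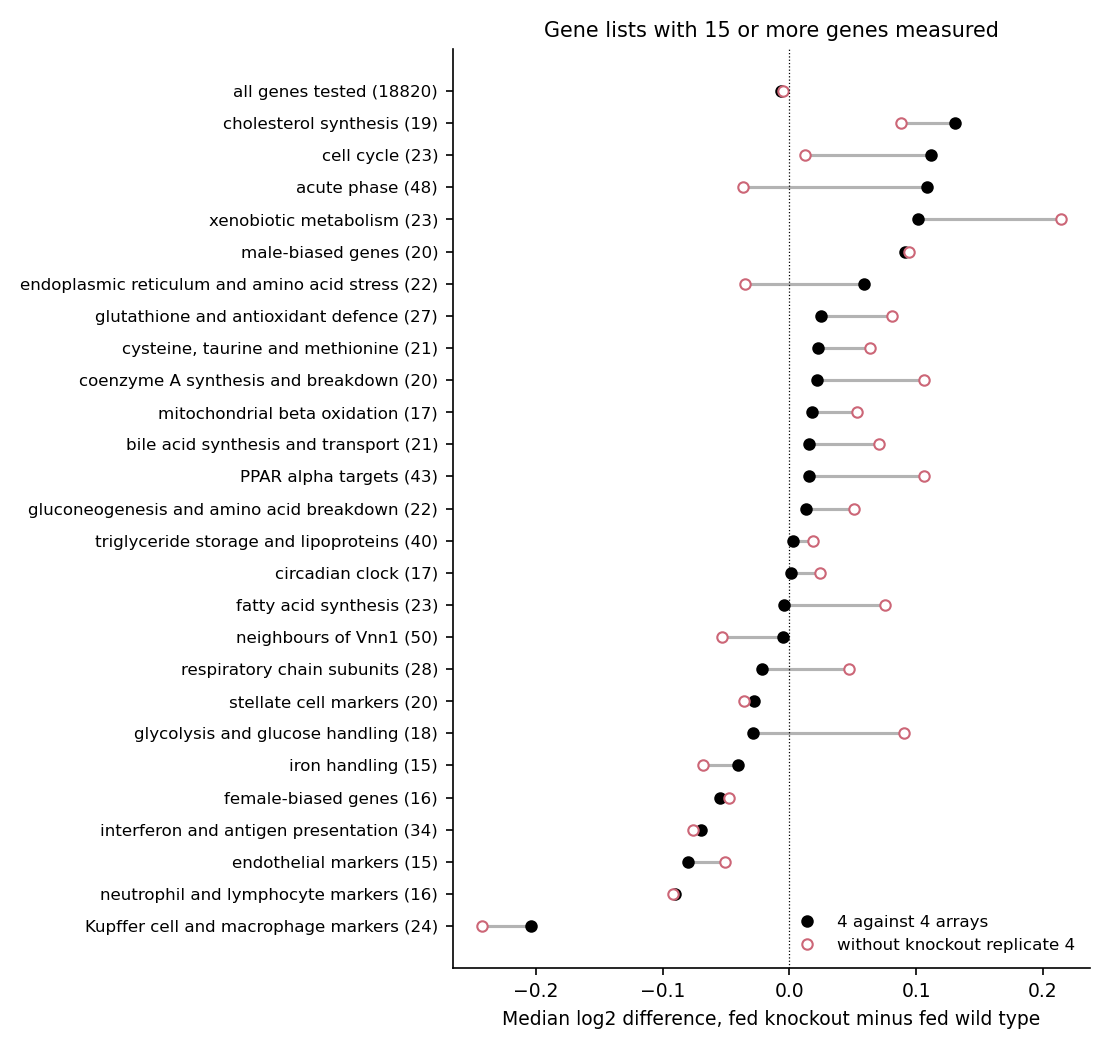
Median log2 difference between fed knockout and fed wild type (horizontal axis) for each gene list with 15 or more genes measured, their number in brackets, with all 8 fed arrays (black) and without knockout replicate 4 (open). The acute phase list moves from 0.11 to -0.04, and the Kupffer cell list is the lowest of those plotted in both, at -0.20 and -0.24.

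A targeted gene can carry a stretch of chromosome from the strain in which it was made, so the 50 tested genes nearest to Vnn1 on chromosome 10, 25 on each side, were read as well. Of these 3 were higher and 3 lower at an unadjusted p under 0.05, where 2.41% and 3.35% of all genes were, and the median was -0.01. Pde7b, a cAMP phosphodiesterase, read 7.27, 7.87, 7.22 and 7.63 in wild type and 8.22, 8.19, 7.87 and 7.97 in knockout liver. All knockout arrays lay above the highest wild type array, replicate 3 barely, with a difference of 0.57 in fed liver and 0.53 in fasted liver. Raet1e, a ligand of the NKG2D receptor, read 9.03, 7.67, 7.68 and 8.02 against 7.79, 7.22, 7.66 and 6.82, with overlap and a difference of -0.73 in fed (-0.41 without wild type replicate 1) and -1.14 in fasted liver. The other 4 were Map3k5 (0.30), Taar7d (0.20), Tcf21 (-0.29) and Slc2a12 (-0.17). Taar7d, at 3.08 in wild type and 3.28 in knockout liver, and Slc2a12, at 4.12 and 3.94, lay near background. None of the 50 passed adjustment. Probe sets without a single gene symbol are not among them. Of those called and given further below, 10368224 and 10362091 carry numbers that fall between those of probe sets of these neighbours. Their place on the chromosome was not looked up. Nnt, which is truncated in C57BL/6J mice, differed by -0.03 and did not separate the groups.

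No gene had a genotype difference that differed between fed and fasted liver at a limma adjusted p under 0.05. The smallest adjusted p was 0.894, and 924 genes (4.91%) had an unadjusted p under 0.05. Vnn1 differed by -5.02 in fed and -6.83 in fasted liver, and the interaction had a limma adjusted p of 0.948. The fed differences of Gadd45g (2.59) and Depp1 (-1.29) stood beside fasted ones of 0.61 and 0.01, but these contrasts were not shown to differ.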

How the data were processed

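Per the submitters' processing notes, the values deposited by the authors are log2 intensities from RMA, a method that subtracts background, equalises the arrays by quantiles and combines the probes of a probe set. The RMA version was not given in the sources used here. There were 35556 probe sets on 16 arrays, the values ran from 1.26 to 14.19, and the medians of the arrays from 5.19 to 5.29. Of these probe sets, 21218 had 1 gene symbol in the annotation table, 1881 had several and 12457 were not in it. Probe sets with 1 symbol were kept, and per gene the one with the highest mean over all arrays, which gave 18820 genes. RefSeq (GRCm38.p6) gave the order of genes and the sequences before gene starts.

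Group means were fitted to all 16 arrays with limma 3.58.1 in R 4.3.3 (12 residual and 4.66 prior degrees of freedom), and the contrast was fed knockout minus fed wild type. The fit was repeated on 15 arrays without fed knockout replicate 4. Tests were two-sided, adjusted by Benjamini-Hochberg over all genes, with calls below 0.05. The labels do not state that each array is a separate animal, so the p-values speak to the spread among samples, which may be technical. The main fit did not pair arrays by replicate number. Across genes, the deviations of same-numbered fed arrays correlated at -0.04 to 0.05, which cannot exclude that they were handled together. Procedures were tested on simulated data.

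Members and the 33 gene lists (673 genes) were chosen with earlier results of these data known. Named were called genes, the 8 largest differences in each direction (5 without fed knockout replicate 4) among genes above the median level with an unadjusted p under 0.05 and no overlap, predicted genes and olfactory receptors left out, the extremes of each list, the 8 acute phase genes with the widest knockout range, Nnt, and members of the pantetheinase, coenzyme A and cysteine lists. Only part of them are printed. List genes named for an unadjusted p under 0.05, and the genes of fed knockout replicate 4, were picked after their values were seen. Other settings were 3 normalisations, 2 level filters, 2 probe set rules, 2 variance priors, array weights, fewer arrays, 2 blocks and 2 thresholds.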

Additional observations from a re-analysis of the deposited data

Results flagged for a closer look

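Single arrays lay far from the other 3 of their group, by Dixon's criterion, in 18 of the 266 sets of 4 values examined, where chance gives about 1 in 20. Many were on fed knockout replicate 4, but several of the genes examined were named because that array was extreme in them, so the number on it is set by the choice of genes. There Tlr2 read 8.38, Tifa 9.77, Steap4 12.35, S100a8 5.27 and Cd163 8.19, each the highest of the knockout arrays. On the same array Clec2h read 6.07, Acot2 6.98, Slc25a16 10.22 and Csad 9.71, each the lowest, as was the mean of the respiratory chain list at 10.30 against 10.55 to 10.56. On other knockout arrays, Ppcs (7.25) and Gbp2 (7.12) were high on replicate 3 and Socs3 (6.51) was low on replicate 1. In wild type liver Slc22a7 was low on replicate 4 (6.59), and Csad (9.71) and the mean of the fatty acid synthesis list (9.88) were low on replicate 3. On wild type replicate 2 Steap4 was high (10.97) and the mean of the respiratory chain list low (10.41).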

How the results depend on the processing

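The 1 gene called became 2, with Hhex, after median centring, with genes above the 50th percentile of level, a robust or trended prior for the variance, weighted arrays or a threshold of 0.10. It became 4 with every probe set, and 0 with the fed arrays alone or without the 3 arrays whose file names end in 2, where Vnn1 stood at -5.02 and -5.13. With 1 array left out the count was 1 to 3 and Vnn1 lay between -5.75 and -4.54. Without fed knockout replicate 4 the 1 call became 4 with every probe set, and 0 with a robust prior or the fed arrays alone. The fit without the 3 arrays already leaves out that replicate, so it is the same fit here. With fed knockout replicate 4 and 1 more array left out, the count was 0 to 2. The replicate block gave 1 call, and Vnn1 at -5.02 (limma adjusted p = 0.0018), and no other call moved with it. With both replicates numbered 4 left out, chosen after seeing the data, Vnn1 stood at -5.81, again as the 1 call. The genotype by feeding contrast gave 0 calls in all 24 settings. Of the medians of the 34 lists, 8 of 780 values moved by more than the spread between arrays, among ketone body, bile duct, pancreas and Vnn1-neighbour genes. The causes were not tested. Genes near background have compressed differences, and 4 arrays a group limit every interval.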

Other observations

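In the fit of every probe set, 3 further probe sets were called that the gene table pairs with no single gene, so no gene is named. Probe set 10368224 read 5.98, 5.80, 5.87 and 5.77 in fed wild type and 4.64, 4.52, 4.55 and 4.44 in fed knockout liver (log2 difference -1.32, limma adjusted p = 3.05e-06). Its groups were tight and apart, and fasted liver gave 5.65 to 6.00 in wild type and 4.77 to 4.95 in knockout mice. Probe set 10362091, which the table pairs with several genes, read 9.58, 8.06, 8.04 and 8.54 against 6.16, 5.95, 5.94 and 5.62 (-2.64, limma adjusted p = 0.00812), and in fasted liver 7.21 to 8.14 against 4.83 to 6.06. Probe set 10338133 read 6.58, 6.67, 6.37 and 6.55 against 5.36, 5.57, 5.21 and 5.83 (-1.05, limma adjusted p = 0.00831), and in fasted liver 5.962 to 6.195 against 5.04 to 5.58. All 3 were also called without fed knockout replicate 4. The number 10368224 falls between those of the Vnn1 neighbours 4930444G20Rik (10368222) and Tbpl1 (10368229). Likewise, 10362091 falls between those of the neighbours Sgk1 (10362073) and H60b (10362097). Where these probe sets lie on the chromosome was not looked up.

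Rangrf, a gene outside the naming rule, was called when fed wild type replicate 3 was left out (-1.17, limma adjusted p = 0.0196). It read 9.00, 8.86, 7.90 and 8.94 in wild type and 8.09, 7.55, 7.66 and 7.77 in knockout liver, and replicate 3 was the wild type array inside the knockout range (difference with all arrays -0.91, limma adjusted p = 0.776). Myc was called when both knockout replicates 1 and 4 were left out, at 3.001 (limma adjusted p = 0.00421).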
